A study of Mus musculus with 8 samples.

Results

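The genes described are the cytosolic ribosomal protein genes, the large (60S) and small (40S) subunit genes named Rpl or Rps with a number together with Rplp0, Rplp1 and Rplp2. They were taken by symbol, leaving out the Rps6k kinases and genes with -ps in the name, which gave 87 of 24411 genes, 53 with a 60S name and 34 with a 40S name. The rule also took Rps19bp1, a nucleolar partner of RPS19 that is no ribosomal subunit, and the gene copies Rps27rt, Rpl37rt and Rps4l. GENCODE annotates Rpl37rt and Rps4l as transcribed processed pseudogenes and the other 85 as protein-coding. The rule did not take ribosomal proteins with other names, such as Rpsa.

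RNA-seq was made from sorted bone marrow cells of wild-type C57BL/6 mice, with 4 populations of 2 libraries each. All populations were KIT+ and CD16/32-, a gate on immature cells that leaves out Fc receptor-bearing myeloid progenitors. CD34bright cells were also CD41+ CD9+. CD48dim and CD48bright cells were both CD34dim CD41+ CD9+, and CD41/CD9-negative cells were CD34dim CD41- CD9-. CD41, the product of Itga2b, and CD9 are surface proteins of the megakaryocyte lineage that other early blood cells also carry. The labels give no age, treatment or number of mice, and do not say whether libraries 1 and 2 of a population came from separate mice, so the p-values rest on library-to-library spread that may be technical. Each library started from 5 ng of total RNA that was amplified as cDNA, and reads carry no strand.

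A ribosome joins a small subunit, which reads the messenger RNA, to a large subunit, which forms the peptide bond, and each subunit is built from ribosomal RNA and single copies of most of its proteins. The proteins are therefore needed in near-equal numbers, and their messages, short and abundant, share a run of pyrimidines at the first base (the terminal oligopyrimidine, or TOP, motif) through which growth signalling sets their translation. Blood formation is sensitive to their dose: loss of 1 copy of RPS19 and of several others causes Diamond-Blackfan anaemia, a failure of red cell production.

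The start sites are shown first because the TOP motif is the sequence feature these genes are known to share. Promoter sequences from RefSeq (GRCm38.p6) matched 66 of the 87 genes. A C at the annotated start followed by at least 4 more C or T bases on the gene's strand was found in 14 of the 66 (21.2%). It was found in 3.01% of all 27025 genes with a RefSeq promoter, where a gene counted if any of its promoters matched. Within 5 bases on either side of the start it was found in 45.5% against 21.2%. None of 68 mitochondrial ribosomal protein genes and none of 24 ribosome biogenesis genes had it at the annotated start. Of 11 translation factor genes whose messages are known for the motif, 1 had it (9.09%). Within 5 bases of the start the shares in these lists were 25%, 20.8% and 36.4%. Each window below runs from 10 bases before the annotated start to 20 bases from it, 5′ to 3′ on the gene's strand, with the pyrimidine run that begins at the start in capitals. They are an acidic stalk gene, a gene mutated in Diamond-Blackfan anaemia, the target of S6 kinase, the gene whose start holds a long run, and Rps27 beside its copy Rps27rt.
Rplp2 (chr7:141447641-141447670, + strand): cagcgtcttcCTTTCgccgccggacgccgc
Rps10 (chr17:27635225-27635254, - strand): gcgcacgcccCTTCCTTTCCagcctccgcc
Rps6 (chr4:86857348-86857377, - strand): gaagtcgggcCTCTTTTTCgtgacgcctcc
Rpl15 (chr14:18270967-18270996, - strand): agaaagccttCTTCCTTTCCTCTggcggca
Rps27 (chr3:90213629-90213658, - strand): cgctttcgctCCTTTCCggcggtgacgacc
Rps27rt (chr9:114982720-114982749, - strand): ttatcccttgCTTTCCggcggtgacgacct
The annotated start is a single base of each promoter, which was the start of the gene in RefSeq for 60.4% of promoters. A match is a description of these letters only. The genes lie on 19 chromosomes. Small nucleolar RNA genes, which guide the modification of ribosomal RNA, lie within 29 of the 87 (33.3%, 55 such genes in all), against 1.24% of all genes with a position.

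Library totals ran from 7237587 to 20632005 expected counts. Itga2b stood at 2.83 and 2.18 counts per 1000000 scaled by TMM (CPM) in CD41/CD9-negative cells and at 64.3 to 155 in the other 6 libraries. Cd48 stood at 35.8 and 16.9 CPM in CD48dim cells and at 157 to 246 elsewhere, and Cd34 was highest in both CD34bright libraries (509.6 and 460.6 CPM), all as the gates call for. The library CD48dim replicate 2 stood apart: it was the shallowest, and its rank correlation with replicate 1 over all tested genes was 0.836, against 0.954 to 0.976 in the other populations. Malat1, a nuclear RNA, stood at 38950 CPM there and at 5004 to 14870 elsewhere, and was higher in replicate 2 than in replicate 1 of all 4 populations. Rn45s, a ribosomal RNA precursor, ranged from 7855 to 105900 CPM and was lower in replicate 2 in all populations but CD34bright. The sum of 8 mature neutrophil genes was 4129 and 604.5 CPM in CD48dim, 678.1 and 45.1 in CD41/CD9-negative and 71.0 to 129.8 in the other 4 libraries. None of the 8 was at 0 in any library. The sums of 6 erythroid, 5 B and plasma cell and 4 macrophage genes were at most 215.3, 85.0 and 45.9 CPM in any library, with C1qa at 0 in 4 libraries. What part these differences have in the results below was not tested.

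The ribosomal protein genes made up 9.54% and 6.12% of all expected counts in CD34bright libraries 1 and 2. In CD48dim they made up 8.97% and 2.37%, in CD48bright 8.15% and 5.82%, and in CD41/CD9-negative 6.47% and 5.18%. Library 2 was the lower one in each population, and the ranges of all 4 populations overlapped. The population means were 7.83% ± 2.42 (SD, n = 2) in CD34bright, 5.67% ± 4.67 in CD48dim, 6.98% ± 1.65 in CD48bright and 5.83% ± 0.91 in CD41/CD9-negative. The spread between the CD48dim libraries was thus wider than any gap between population means. Counting error was small beside it, with exact 95% binomial intervals of 9.53% to 9.56% for CD34bright replicate 1 and 2.35% to 2.38% for CD48dim replicate 2. The intervals cover counting error only, since amplified reads are not independent molecules. In bulk RNA, fewer cells of a type and less RNA per cell cannot be told apart.

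**Figure D1:**
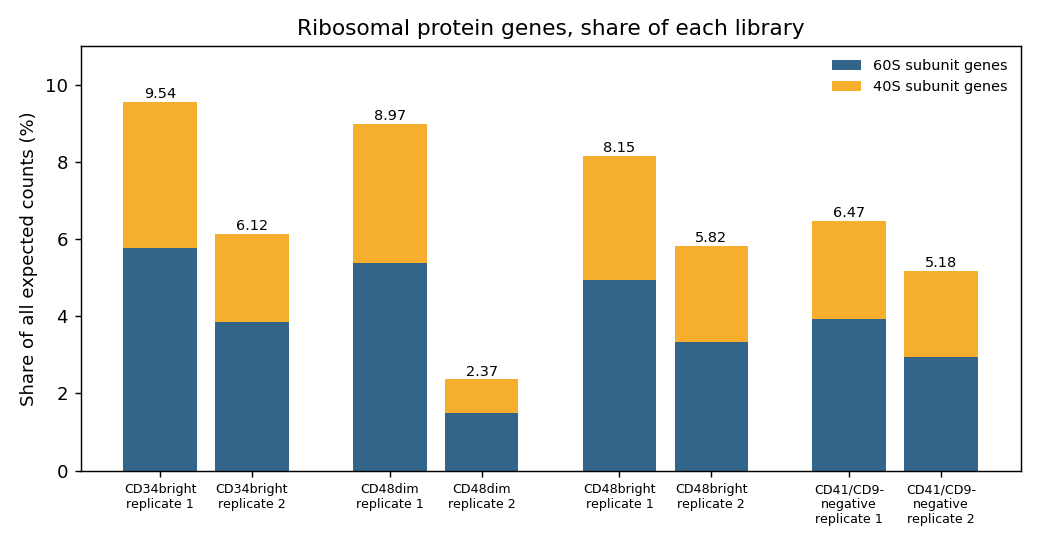
Share of all expected counts (percent) in ribosomal protein genes, 1 bar per library, split into 60S and 40S names, with the total above each bar. Replicate 2 is the lower bar in all 4 populations, and the CD48dim bars, 8.97% and 2.37%, are the farthest apart.

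The summed share of 60S-named genes and that of 40S-named genes were each lower in library 2 of each population and lowest in CD48dim replicate 2. The ratio of 60S-named to 40S-named counts was 1.53 and 1.69 in CD34bright, 1.49 and 1.68 in CD48dim, 1.54 and 1.33 in CD48bright, and 1.55 and 1.32 in CD41/CD9-negative. Libraries numbered 1 were close together at 1.49 to 1.55. Libraries numbered 2 lay above that range in CD34bright and CD48dim and below it in the other populations.

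Per kilobase of effective transcript length, the genes spanned a wide range, with a median over genes of 1435 CPM per kilobase and the middle 80% from 328 to 3470. The highest mean levels on this scale were those of Rpl32 at 4743, Rps27 at 4632, Rps23 at 4364, Rps4x at 4153 and Rplp2 at 4019. Rps23 lines the decoding centre of the small subunit, and Rps4x is the X-linked form of eS4. The lowest levels among tested genes were those of Rpl3l at 0.42, Rps4l at 7.92, Rpl37rt at 15.5, Rpl7l1 at 21.6 and Rps19bp1 at 24.2 CPM per kilobase, which are paralogues, copies or, in the case of Rps19bp1, no subunit. Rpl39l and Rpl10l, paralogues known from the testis, had 10 counts and 1 count over all 8 libraries and were not tested. The order of the genes was similar in all libraries, with rank correlations between library pairs from 0.851 to 0.991 and a median of 0.905. These describe the same genes measured with shared lengths.

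Among the 4 populations, the quasi-likelihood F-test of edgeR on the counts called 0 of the 85 tested genes at an adjusted p below 0.05, against 2.44% of all 13177 tested genes (322). At an unadjusted p below 0.05 it had 1 of the 85 (1.18%) against 16.8% of all genes, so the share was below the background. DESeq2 and limma-voom also called none of them. Without the block, the 5 genes of smallest p by edgeR were Rpl3l (adjusted p = 0.279), Rpl10 (0.328), Rpl26 (0.393), Rpl36al (0.439) and Rpl10a (0.46). Rpl3l, the 1 gene with an unadjusted p below 0.05, passed the low-count filter only through CD41/CD9-negative, where it is high.

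In CD34bright minus CD48dim, edgeR called 0 of 85 genes against 0.577% of all genes. DESeq2 called 1 against 9.56% of all genes, and limma-voom 0 against 0.342%. In the edgeR fit, 6 had an unadjusted p below 0.05 (7.06% against 19% of all genes), all higher in CD34bright (8.26% of all genes). Both CD34bright libraries lay above both CD48dim libraries for 15 genes (17.6% against 23.1% of all genes). The median log2 difference was 0.59, beside -0.07 over all tested genes, and 77 of 85 (90.6%) were positive against 47% of all genes. The median rested on single libraries: it was 0.21 without CD34bright replicate 1, -0.05 without CD48dim replicate 2 and 1.78 without CD48dim replicate 1. Rpl10, whose protein joins the 60S subunit late in its assembly (chrX:74270812-74273135, + strand), had 3143 and 3118 CPM in CD34bright and 1521 and 794.5 in CD48dim. It stood at 2492 and 1785 in CD48bright and at 2600 and 1724 in CD41/CD9-negative. Both CD34bright libraries were above all other 6 and both CD48dim libraries below them, and the log2 difference was 1.44 ± 0.45 (SE; edgeR adjusted p = 0.145).

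Rpl10a, a 60S protein at the L1 stalk, had 2981 and 2547 CPM in CD34bright, 1603 and 1003 in CD48dim, 2105 and 1368 in CD48bright and 1925 and 1135 in CD41/CD9-negative. Here too both CD34bright libraries were the highest, and the log2 difference to CD48dim was 1.08 ± 0.44 (adjusted p = 0.23 by edgeR). Rpl26, a 60S protein near the exit tunnel that is also known to bind p53 messages (chr11:68901583-68906989, + strand), had 424.6 and 218.4 CPM in CD34bright and 173.8 and 99.9 in CD48dim. In CD48bright it had 305.6 and 256.2 and in CD41/CD9-negative 204.8 and 322.2, so that only the CD48dim libraries stood below the rest. Its log2 difference between CD34bright and CD48dim was 1.23 ± 0.44 (adjusted p = 0.182 by edgeR). Rpl15 had 1820 and 1407 CPM in CD34bright and 937.5 and 457.2 in CD48dim, a log2 difference of 1.21 ± 0.47 (adjusted p = 0.214 by edgeR).

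Blocking on the replicate number (the replicate block), edgeR called 4 of the 85 genes higher in CD34bright than in CD48dim, against 5.18% of all genes (682), and 31 of the 85 had an unadjusted p below 0.05, against 24.4% of all genes. These were Rpl10 (adjusted p = 0.0278), Rpl7a, Rpl15 and Rpl10a (0.0445). No other comparison of populations called a ribosomal protein gene with the block.

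The other pairs of populations had 0 called genes of 85 as well, against 0.387% of all genes for CD48bright minus CD48dim, 4.02% for CD41/CD9-negative minus CD48dim, 0% for CD34bright minus CD48bright, 0.212% for CD41/CD9-negative minus CD48bright and 0.842% for CD41/CD9-negative minus CD34bright. At an unadjusted p below 0.05 the counts in the same order were 1, 0, 0, 0 and 1 of 85, against 14.6%, 19.5%, 1.99%, 7.12% and 9.91% of all genes. The gene in CD41/CD9-negative minus CD34bright was Rpl3l, which had 38 counts in all. It passed the low-count filter only through CD41/CD9-negative, where it is high, so it is no support for a difference. The median log2 differences were 0.36, 0.17, 0.23, -0.24 and -0.45, while those over all tested genes lay between -0.06 and 0. Positive values were found for 74, 54, 81, 13 and 4 of 85 genes, against 48.2%, 47.4%, 48.7%, 48.7% and 49.5% of all genes. Leaving out 1 library turned the sign of 4 of these medians. Without CD48dim replicate 2, CD48bright minus CD48dim was -0.28 and CD41/CD9-negative minus CD48dim -0.51. Without CD34bright replicate 1, CD34bright minus CD48bright was -0.15, and without CD48bright replicate 1, CD41/CD9-negative minus CD48bright was 0.05. CD41/CD9-negative minus CD34bright kept its sign, from -0.76 without CD34bright replicate 2 to -0.09 without CD34bright replicate 1. Both CD41/CD9-negative libraries lay below both CD34bright libraries for 28 of 85 genes (32.9% against 25.6% of all genes). The pairs share populations and are not independent of each other.

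Within the libraries of 1 number the differences to CD48dim took different values. Among libraries numbered 1, the median log2 difference to CD48dim was 0.24 for CD34bright, -0.11 for CD48bright and -0.47 for CD41/CD9-negative. Among libraries numbered 2 it was 1.41, 1.33 and 1.25. CD41/CD9-negative minus CD34bright was negative in both, at -0.67 and -0.22. CD34bright minus CD48bright was positive in both, at 0.33 and 0.14. Without CD48dim replicate 1, edgeR called 68 of 85 genes in CD48bright minus CD48dim, 75 in CD34bright minus CD48dim, 48 in CD41/CD9-negative minus CD48dim and 51 for any difference. The background was then 23.3%, 28.4%, 23.9% and 24.7% of all genes, and the CD48dim group was replicate 2 alone, taken to vary like the other groups. Without CD48dim replicate 2, 2 genes were called in CD41/CD9-negative minus CD48dim, both lower (Rpl13a and Rps27a), against 10.4% of all genes, and 0 in the other tests of populations.

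**Figure D2:**
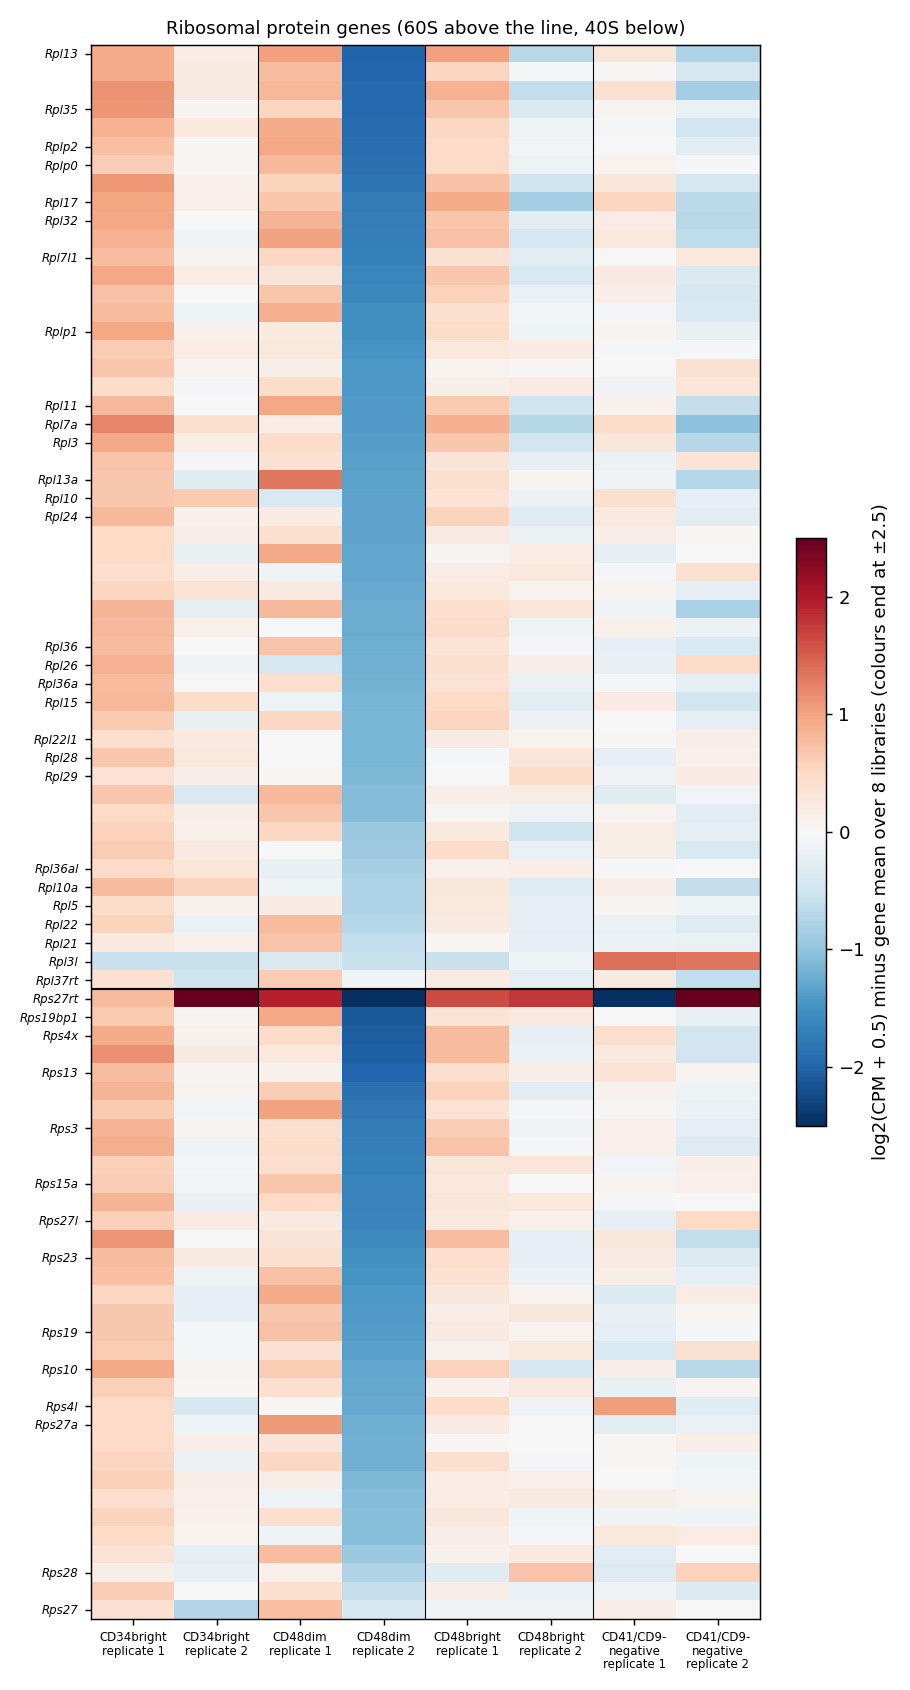
log2(CPM + 0.5) of each of the 85 tested genes minus its mean over the 8 libraries (colour, ending at ±2.5), 1 column per library, 60S names above the line and 40S names below, with names for genes given in the text. The column of CD48dim replicate 2 is the lowest for 81 genes and that of CD34bright replicate 1 the highest for 58, and Rps27rt and Rpl3l depart from the common pattern.

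Most ribosomal protein genes were lower in the library numbered 2 than in that numbered 1 of the same population. On the log2(CPM + 0.5) scale, which understates differences of low genes, the median of replicate 2 minus replicate 1 was -0.70 in CD34bright, -1.88 in CD48dim, -0.44 in CD48bright and -0.22 in CD41/CD9-negative. Over all tested genes the medians lay between -0.14 and 0. The number of genes lower in library 2 was 83, 85, 70 and 58 of 85 in that order, and 56 (65.9%) were lower in all 4 populations, against 16.6% of all genes. None was higher in all 4, against 14.8% of all genes. Library 2 was lower by more than 1 log2 unit for 73 genes in CD48dim (85.9% against 28.9% of all genes), and for 8.24%, 14.1% and 7.06% in CD34bright, CD48bright and CD41/CD9-negative (against 3.93%, 10.4% and 9.58%).

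In a fit with population and replicate number as terms, edgeR called 0 of the 85 genes, and 0% of all genes, at an adjusted p below 0.05, with 0.172 the smallest adjusted p. At an unadjusted p below 0.05 it had 49 genes (57.6% against 18.2% of all genes), all of them lower in replicate 2 (9.3% of all genes). The fitted difference was negative for 82 of 85 (96.5% against 54% of all genes), with a median of -0.74. DESeq2 called 36 of the 85, against 9.1% of all genes, and limma-voom 11, against 0.342%. The call of 0 by edgeR also gave way without CD48dim replicate 1, when 28 were called against 3.31% of all genes, and without CD48dim replicate 2, when 27 were called against 3.18%. Without both CD48dim libraries 22 were called against 2.45%.

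Rpl7a, a 60S protein (eL8; chr2:26910764-26913318, + strand), had the smallest p. It had 2362 and 1340 CPM in CD34bright libraries 1 and 2, 1156 and 380.5 in CD48dim, 1894 and 625.5 in CD48bright, and 1401 and 503.7 in CD41/CD9-negative. Library 2 was lower in every pair, with a log2 difference of -1.38 ± 0.21 (SE; edgeR adjusted p = 0.172). Rpl13 had the most negative value, -1.62 ± 0.35, with 2763 and 1659, 2946 and 364.8, 2972 and 894.5, and 1804 and 854.2 CPM in the same order. Rpl3, at the peptidyl transferase centre, had 2647 and 1563, 1891 and 526.1, 2188 and 975.9, and 1674 and 833.1 CPM, a log2 difference of -1.19 ± 0.22. Library 2 was the lower one in all 4 populations for these 3 genes. The ranges of the populations overlapped, except that both CD34bright libraries were above both CD48dim libraries for Rpl7a.

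The direction was not shared by every gene. Rps28, a small protein near the messenger RNA exit, had 154.3 and 121 CPM in CD34bright, 150.3 and 82.5 in CD48dim, 112 and 228.4 in CD48bright, and 110.5 and 207.6 in CD41/CD9-negative. It was lower in library 2 in CD34bright and CD48dim and higher in CD48bright and CD41/CD9-negative, with an overall log2 difference of 0.19 ± 0.33. Rpl28, Rpl29 and Rpl36al had differences between -0.21 and -0.15 log2 units.

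**Figure D3:**
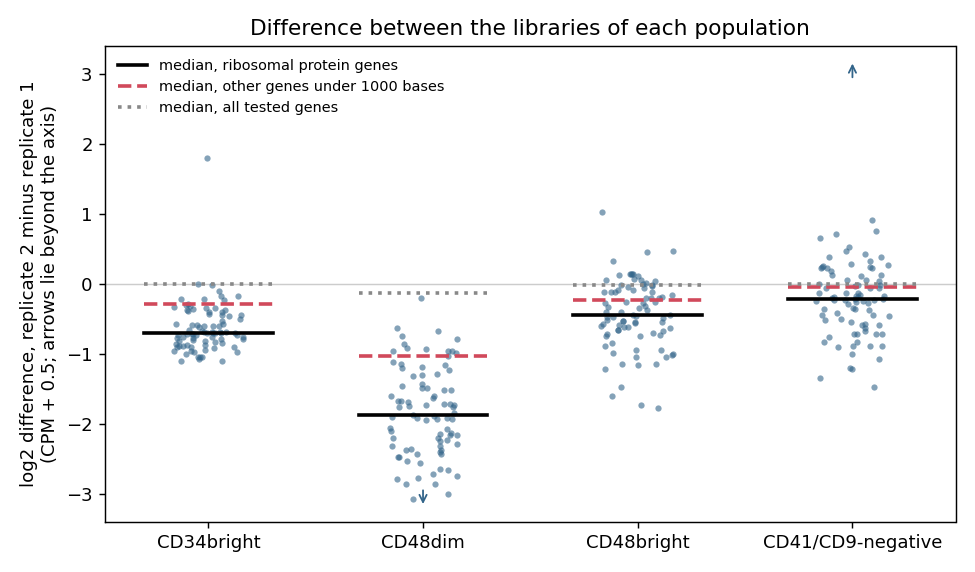
Difference between replicate 2 and replicate 1 on the log2(CPM + 0.5) scale for each tested ribosomal protein gene (points) in the 4 populations, with medians of these genes, of other genes under 1000 bases and of all tested genes. The median of the ribosomal protein genes is the lowest of the 3 lines in each population, at -1.88 in CD48dim and -0.22 in CD41/CD9-negative.

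Transcript length moved with the difference between libraries. The tested ribosomal protein genes had a median effective length of 439 bases against 2537 over all tested genes, and 84.7% were under 1000 bases against 12.9%. Averaged over the 4 populations, the median difference of other genes was -0.45 under 300 bases, -0.42 at 300 to 600, -0.37 at 600 to 1000, -0.21 at 1000 to 2000, -0.012 at 2000 to 4000 and 0.17 over 4000. The ribosomal protein genes stood at -0.57 (28 genes), -0.90 (29), -1.04 (15) and -0.71 (11) in the 4 shorter classes. Under 300 bases this did not hold in each population: the 28 genes stood above other genes of that length in CD48bright (-0.051 against -0.27) and CD41/CD9-negative (0.23 against -0.020). Their only members in the longer classes, Rpl7l1 and Rps15a, stood at -0.82 each, and the effective length of Rps15a, 4889 bases, is the longest of the family. Effective length is a deposited estimate for the gene, and whether the main message of Rps15a is that long was not checked. On that length Rps15a had 212 CPM per kilobase, against the family median of 1435. These 2 genes therefore cannot part the difference from length. Over all 1630 other genes under 1000 bases the median was -0.40, with 1207 of them lower, and over the 123 of these with a mean of at least 100 CPM it was -0.50, with 104 lower. The ribosomal protein genes were at -0.75, or -0.35 relative to the short genes. Among the ribosomal protein genes themselves, longer transcripts had slightly more negative values (rank correlation -0.267 over 85 genes, which share libraries). What part length has in the difference was not tested.

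**Figure D4:**
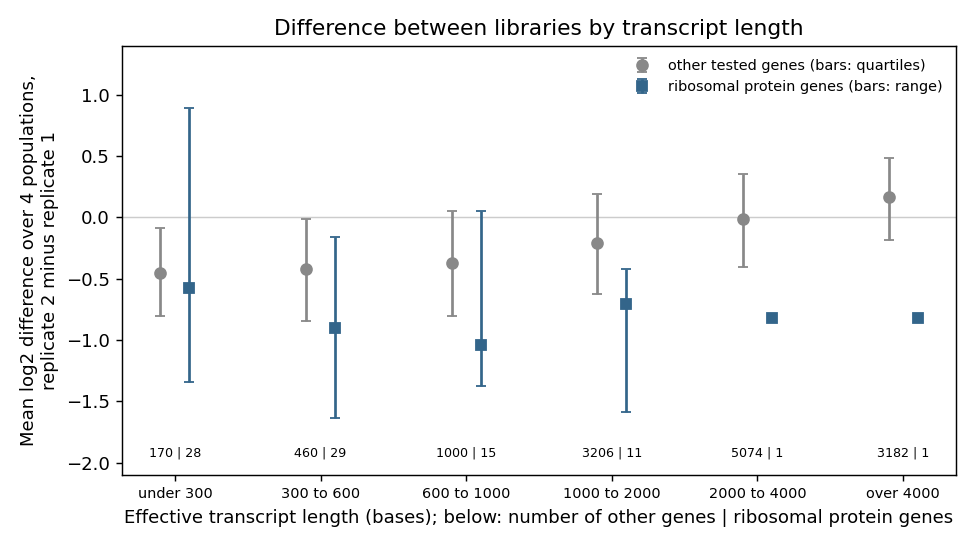
Mean difference between replicate 2 and replicate 1 over the 4 populations (log2 units) by class of effective transcript length (bases), for other tested genes (circles, median and quartiles) and ribosomal protein genes (squares, median and range). Other genes run from -0.45 in the shortest class to 0.17 in the longest, and on this mean the medians of the ribosomal protein genes lie below them in each class. The classes of 2000 to 4000 and over 4000 bases hold 1 ribosomal protein gene each, Rpl7l1 and Rps15a.

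Classes within the family were close. The median difference between libraries was -0.63 in the 14 genes with a TOP motif at the annotated start and -0.74 in 50 without one, -0.86 in the 29 genes that hold small nucleolar RNA genes and -0.72 in the other 56, and -0.76 in 60S against -0.72 in 40S genes. The 3 stalk proteins, which recruit translation factors to the large subunit, were lower in replicate 2, at -0.96 for Rplp0, -0.86 for Rplp1 and -1.06 for Rplp2, with unadjusted p below 0.05 for each and none called.

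Of the 11 listed genes known from Diamond-Blackfan anaemia or the related 5q- syndrome, all were negative in replicate 2 minus replicate 1, against 54% of all genes. Their median was -0.49, and 3 had an unadjusted p below 0.05 by edgeR (Rpl5, Rpl11 and Rps10), against 18.2% of all genes. Rps19, the gene most often mutated in the disease (chr7:24884371-24889806, + strand), had 486.5 and 297.9 CPM in CD34bright, 509.5 and 115 in CD48dim, 354.2 and 326.2 in CD48bright, and 258.7 and 295.1 in CD41/CD9-negative. Both CD41/CD9-negative libraries lay below those of CD34bright and CD48bright, the other ranges overlapped, and in CD41/CD9-negative library 2 was the higher one. Rpl11 and Rpl5, which together with 5S ribosomal RNA bind MDM2, differed in size. Rpl11 had 1378 and 792.7, 1532 and 294.2, 1234 and 554.8, and 853.4 and 520.9 CPM (log2 -1.25 ± 0.28), and Rpl5 had 2207 and 1739, 1869 and 941.5, 1929 and 1386, and 1680 and 1503 (log2 -0.49 ± 0.20). Neither was called by edgeR (adjusted p = 0.172 and 0.248). Between populations, all 11 were higher in CD34bright than in CD48dim (median 0.59) and lower in CD41/CD9-negative than in CD34bright (median -0.31), with 0 called in either, against the backgrounds above.

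As a share of the summed ribosomal protein counts, the median coefficient of variation over the 8 libraries was 20.6%, and for the CPM it was 38.5%. Both are over 82 genes with a mean of at least 10 CPM. The share takes out the summed level of each library, so a smaller coefficient follows from the scaling and is not a result. The steadiest shares were those of Rps23 (coefficient 6.33%), Rpl36a (7.24%), Rpl24 (9.33%) and Rplp1 (9.9%), and the least steady those of Rps27rt (94.7%), Rps28 (48.5%), Rps27 (40.6%) and Rpl13a (32.9%). Rps23 took 2.12% and 2.21% in CD34bright, 1.95% and 1.85% in CD48dim, 2.02% and 1.98% in CD48bright, and 2.18% and 1.94% in CD41/CD9-negative. Rps28 took 0.152% and 0.185%, 0.179% and 0.351%, 0.135% and 0.416%, and 0.168% and 0.411% in the same order, and was the higher in library 2 each time. In all, 21 genes had a higher share in library 2 in all 4 populations, among them Rpl12, Rpl21, Rpl29, Rpl39 and Rps28, and 15 a lower share, among them Rpl3, Rpl13, Rpl17, Rps4x and Rps10. Shares are parts of a fixed total, so some must rise where others fall. No background over all genes was computed for these counts.

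By population, the shares of Rpl21, Rpl22, Rpl36, Rpl37rt and Rps27 in both CD48dim libraries were above those in all other 6 libraries, and those of Rplp1, Rps13 and Rps3 were below. For Rps27 this depends on how reads were divided with its copy Rps27rt. Rps27 took 0.9836% in CD48dim replicate 1 and 0.9699% in CD41/CD9-negative replicate 2, and Rps27rt took 0.1625% and 0.4597% in these libraries. The place of Rps27 is therefore uncertain. Rpl21 took 1.70% and 2.43% in CD48dim and 1.02% to 1.55% elsewhere. Rps13 took 0.828% and 0.688% in CD48dim and 1.03% to 1.36% elsewhere. These genes were singled out after their values were seen and carry no test.

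Some ribosomal proteins have a paralogue that can take their place, and the pairs are given as the share of the second gene in the pair's counts per length. Rpl22l1 can replace Rpl22, which is known for its part in T cell development and for binding the Rpl22l1 message. It made up 73.4% and 80.1% in CD34bright, 64.1% and 69.3% in CD48dim, 75.01% and 78.9% in CD48bright, and 77.7% and 81.0% in CD41/CD9-negative. Both CD48dim libraries were below the other 6, and library 2 was higher in each population. The size of these shares rests on effective lengths of 1958 bases for Rpl22 and 233.7 for Rpl22l1. In counts, Rpl22 was the larger, with 50667 over all libraries against 18094. The counts of Rpl22l1 were not whole in 7 of the 8 libraries, so some of its reads were divided between genes by estimation. In CPM, Rpl22 (chr4:152325742-152334071, + strand) had 611.4 and 371.7, 715.2 and 254.1, 483.4 and 356.2, and 370.9 and 329.8. Rpl22l1 (chr3:28805436-28807424, + strand) had 201.3 and 178.5, 152.3 and 68.3, 173.2 and 159.3, and 153.8 and 167.8. For CD34bright minus CD48dim the log2 difference was 0.02 ± 0.48 for Rpl22 and 0.78 ± 0.39 for Rpl22l1, neither called by edgeR (adjusted p = 0.987 and 0.309), and the difference between these genes was not tested.

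**Figure D5:**
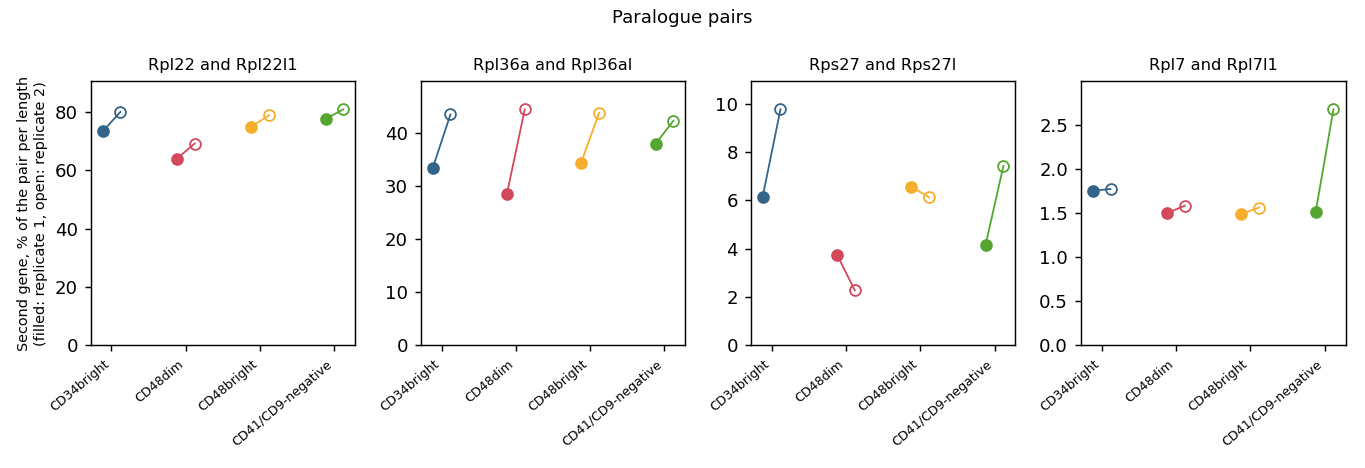
Share of the second gene in the length-scaled counts of 4 paralogue pairs (percent), replicate 1 filled and replicate 2 open, by population. Rpl22l1 lies between 64.1% and 81.0%, lowest in CD48dim, and Rpl36al is higher in replicate 2 in each population.

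Rpl36al made up 33.3% and 43.4% of the pair with Rpl36a in CD34bright, 28.5% and 44.4% in CD48dim, 34.4% and 43.8% in CD48bright, and 37.9% and 42.3% in CD41/CD9-negative, higher in library 2 each time. Rps27l, a p53-induced paralogue of Rps27, was at 2.27% to 3.76% in CD48dim and 4.15% to 9.77% elsewhere. These shares rest on the level of Rps27, which is uncertain (below). Rpl7l1, a paralogue of Rpl7, was at 1.49% to 2.68% of their pair. Rpl3l, the form known from heart and skeletal muscle, had 38 counts in all: 0 CPM in both CD34bright libraries, 0.073 and 0 in CD48dim, 0 and 0.183 in CD48bright and 1.42 and 1.37 in CD41/CD9-negative. The CD41/CD9-negative libraries were the highest, at levels near the limit of detection, and no fold is given.

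Rps27rt gave 60.8 and 213.1 CPM in CD34bright, 136.5 and 0.412 in CD48dim, 109.4 and 120.2 in CD48bright, and 0 and 232.2 in CD41/CD9-negative. The 0 stands for 0.15 expected counts before rounding. The counts were not whole in any of the 8 libraries, so reads were divided between genes by estimation, and the levels of Rps27rt and of its parent Rps27 are uncertain. Of 26 ribosomal protein genes whose exons overlap those of another gene, Rpl35 was the only one where that gene had more than 10% of its count (Arpc5l, at 20.6%), and since reads carry no strand such reads cannot be told apart.

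Other genes of the ribosome and its assembly were read from the same fits. Rpsa, the laminin receptor precursor of the 40S subunit, had 2910 and 2438 CPM in CD34bright, 4026 and 332 in CD48dim, 2447 and 869.4 in CD48bright, and 2040 and 710.4 in CD41/CD9-negative. Library 2 was the lower one in each population (log2 -1.68, edgeR adjusted p = 0.173). Of 16 translation factors and related genes whose messages are known to carry a TOP motif, 15 were negative in replicate 2 minus replicate 1 (median -0.45, 8 with unadjusted p below 0.05). Eef1a1, the elongation factor that brings aminoacyl-tRNA, had 7632 and 5901 CPM in CD34bright, 6705 and 3974 in CD48dim, 7132 and 6723 in CD48bright, and 5758 and 7075 in CD41/CD9-negative. Of 77 mitochondrial ribosomal protein genes, 70 were negative (median -0.50, 17 with unadjusted p below 0.05). The 30 ribosome biogenesis genes had a median of -0.11 (23 negative, 5 with unadjusted p below 0.05) and 14 RNA polymerase I genes -0.35 (10 negative, 1). Over all tested genes, 54% were negative and 18.2% had an unadjusted p below 0.05 in the same edgeR fit. None of these listed genes was called by edgeR, against a background of 0% of all genes.

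Between populations, 28 of 30 biogenesis genes were lower in CD41/CD9-negative than in CD34bright (median log2 -0.62, 6 with unadjusted p below 0.05 by edgeR). Over all tested genes, 50.3% were lower in that comparison and 9.91% had an unadjusted p below 0.05. The lists were not recomputed with single libraries left out. Fbl, the methyltransferase of box C/D small nucleolar RNAs, had 338.3 and 220 CPM in CD34bright, 282.3 and 94.5 in CD48dim, 245.6 and 258.3 in CD48bright, and 173.8 and 133.8 in CD41/CD9-negative. The values of 64 of 77 mitochondrial ribosomal protein genes were negative in that comparison too (median -0.42), as were 12 of 14 RNA polymerase I genes (median -0.35), and none of the 3 lists had a called gene, against 0.842% of all genes.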

How the data were processed

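Per the submitters' processing notes, reads were handled with STAR 2.7.2a, RSEM 1.3.2 and edgeR 3.30.3 on mm10; the sources used here name no other steps. The deposited values are expected counts per gene, estimated by RSEM and not normalized, with an effective length for each gene, as the file headers name them. A second deposited table per library holds a subset of 9918 genes, 59 of them ribosomal protein genes, with the same values (largest difference 0).

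Expected counts were rounded to whole numbers. In R 4.3.3, edgeR 4.0.16 (TMM scaling, filterByExpr, glmQLFit and glmQLFTest, all 8 libraries) tested 13177 genes, with Benjamini-Hochberg adjustment over all of them and calls below 0.05. The rule left 2 of 87 genes untested. CPM are expected counts per 1000000, scaled by TMM, and levels between genes are CPM per 1000 bases of effective length. limma 3.58.1 and DESeq2 1.42.0 were alternatives. The edgeR steps were tested on simulated data with less spread than these libraries, which checks the steps and not their power here. The biological coefficient of variation was 49.8%. Libraries with the same number deviated together (correlations of 0.142 to 0.274 between populations, all over 0.1). The numbers were therefore taken to pair the libraries in the replicate block and in the test of replicate 2 minus replicate 1. The main tests of populations had no replicate term, so the difference between libraries 1 and 2 counts as spread in them. What a number marks is not in the labels. Groups came from the sort gates. Positions are from GENCODE M21 (GRCm38, which is mm10).

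Genes were named by rule: those called or, with none, the 5 of smallest p, set paralogue pairs, the 5 highest and lowest per length, and the 4 most and least variable shares. Further genes were named by function. The members and lists were chosen with earlier results of these data known. Some genes of the family are not reported by name here.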

Additional observations from a re-analysis of the deposited data

How the results depend on the processing

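The count of called ribosomal protein genes was 0 in each test by edgeR, and it moved for some settings. Without the filter on low counts it was 2 in CD34bright minus CD48dim (5.51% of all genes called) and 28 between replicates (1.87%); with DESeq2 it was 1 (9.56%) and 36 (9.1%); with limma-voom 11 between replicates (0.342%). The replicate block gave 4 in CD34bright minus CD48dim (5.18%) and changed no other count of calls between populations. Only the 4 libraries of the pair gave 1 in CD41/CD9-negative minus CD34bright (8.7%), Rpl3l, which passed the low-count filter only through the group where it is high. Leaving out each library in turn gave 0 to 51 for any difference, 0 to 68 in CD48bright minus CD48dim, 0 to 75 in CD34bright minus CD48dim, 0 to 48 in CD41/CD9-negative minus CD48dim and 0 to 28 between replicates; without both CD48dim libraries, chosen after seeing the data, it was 22 (2.45%). The cause was not tested. The second deposited table, which lacks 28 of the genes, gave a CD41/CD9-negative share of 4.449% in place of 5.827%.

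Scaling by the summed ribosomal protein counts, which put the median of all genes at -1.10 in CD34bright minus CD48dim and at 0.77 between replicates, reversed Rpl36al in the former (-0.078) and, between replicates, Rpl5 (0.37), Rps19 (0.17), Rpl22 (0.16) and Rpl22l1 (0.53). That scaling centres the family near 0 by construction (median 0.11 between replicates), so these signs only place a gene against the family. Of the other recomputed values of named genes, 730 kept their side of the threshold and 49 passed it newly. Of the 730, 534 were adjusted p-values for any difference among populations, which have no direction. The direction was also kept by the other 69 in CD34bright minus CD48dim and 127 between replicates. The median difference of -0.75 between replicates ranged from -0.99 to -0.43 when a population was left out.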

Other observations

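Of 7 ribosomal protein genes with -ps in the name, which the selection left out, Rpl34-ps1 had 12714 expected counts over the 8 libraries beside 12149 for Rpl34, and its counts were not whole in any library. Its share of the pair per length was 57.9% to 65.1%. The 7 genes together took 0.0079% to 0.0158% of all counts, and the reads that RSEM divided between Rpl34 and Rpl34-ps1 cannot be told apart here.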
